A study of Mus musculus with 14 samples.

Results

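The genes described are the mouse genes whose symbol is Zfp followed only by digits, a name given to zinc finger proteins. They were selected on their counts: a gene was taken when each of the 14 libraries held at least 10 counts for it. This gave 239 members of the 392 genes with such a symbol among 55414 genes in the deposited table. The counts that chose the members are levels, so levels are given as a description without a test.

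RNA was sequenced from granulosa cells (GCs), the somatic cells that surround the oocyte, taken from antral follicles of female mice aged 12 weeks on chow diet. About 50 cells went into each library, whose polyadenylated RNA was captured by oligo-dT and amplified as cDNA without molecular identifiers, so limits from counts cover counting error only. The db/db mice (strain B6.BKS(D)-Leprdb/J, 4 libraries) lack the long isoform of the leptin receptor encoded by Lepr. The ob/ob mice (strain B6.Cg-Lepob/J, 3 libraries) lack leptin, the product of Lep. Their controls, CT db (4 libraries) and CT ob (3 libraries), were lean mice from the same litters. The labels give the controls as wild type while their column names read as heterozygous, and this was not settled. The labels do not say that each library came from another animal, so the tests measure the spread between libraries.

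Most Zfp genes encode proteins with C2H2 zinc fingers, small folds in which a pair of cysteines and a pair of histidines hold a zinc ion and which contact DNA or RNA. Many also carry a KRAB box, which recruits the scaffold protein TRIM28 and with it the histone methyltransferase SETDB1, HP1 proteins and histone deacetylases, and KRAB zinc finger proteins are known for silencing transposable elements and for holding methylation at imprinted genes. The family expanded by tandem duplication, so many of its genes stand in runs along a chromosome and resemble each other in sequence.

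The mutated genes were close to the limit of detection. Lepr had 1, 6, 2 and 1 counts in CT db, 0, 2, 3 and 3 in db/db, 3, 8 and 12 in CT ob, and 4, 12 and 17 in ob/ob. Lep had 2 counts in the CT ob library obHet_68, 3 in the ob/ob library obHOM_50 and 0 in the other libraries. Neither gene could show the genotype at these counts. Values of single libraries are given in a fixed order: het_37, het_51, het_69 and het_75 for CT db, and HOM_24, HOM_53, HOM_68 and HOM_81 for db/db. The order for CT ob is obHet_60, obHet_65 and obHet_68, and for ob/ob obHOM_41, obHOM_50 and obHOM_106. Library totals were 3624237, 4840714, 3655759 and 3807338 counts in CT db and 2494955, 2204686, 2228526 and 3059777 in db/db. They were 4847166, 3762905 and 3664219 counts in CT ob and 6907152, 8367593 and 5306632 in ob/ob.

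Library obHet_68 of CT ob stood apart in the members, as did het_51 of CT db in the KRAB members described below, and calls between the controls are also given without each of them. Library obHet_68 had the lowest scaling factor (0.800, against 0.941 to 1.09 in the other libraries) and gave 0.532% of its counts to the members, while the other 13 libraries gave 0.839% to 1.21%. The highest share, 1.21%, was that of het_51, with HOM_81 of db/db next at 1.16%. For each member, a deviation was taken from its mean over the libraries on the log2 CPM scale, where CPM means counts scaled to a library total of 1e6 with factors from the trimmed mean of M values (TMM). The median deviation over the members was -0.53 in obHet_68, 0.25 in het_51 and 0.22 in HOM_81. Over all 9643 genes that met the same floor of 10 counts in each library, the median deviation lay between -0.04 and 0.02 in the libraries.

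The granulosa label was checked against 15 markers, all of which had counts in all 14 libraries. Their summed CPM was 23509.7, 29039, 31858 and 32452 in CT db, 23107, 27527, 29586 and 25903 in db/db, 15830.1, 18238 and 21724 in CT ob and 29765, 27683 and 22965 in ob/ob, and Gja1, a gap junction protein of these cells, was the most abundant. The summed CPM of 20 oocyte markers was 44.7, 419, 259 and 46.9 in CT db, 65.2, 132, 126 and 67.1 in db/db, 1621, 436 and 156 in CT ob and 424, 324 and 1271 in ob/ob. The most abundant of these was the receptor gene Kit (21.7 to 104 CPM), and 14 of the 20 genes were at 0 in at least 1 library, among them Zp3, Zp2, Bmp15 and Dppa3. The highest oocyte sums were those of obHet_60 and obHOM_106, while het_51 had the highest of CT db and obHet_68 the lowest of CT ob. Theca and stroma markers (14 genes, Cyp11a1 the most abundant, 5 at 0 in some library) summed to 54.5, 133, 169 and 169 in CT db, 583, 92.1, 35.9 and 169 in db/db, 39.3, 413 and 131 in CT ob and 20.9, 96.3 and 122 in ob/ob CPM. The 11 macrophage and leukocyte markers, with Lyz2 the most abundant and 8 at 0 in some library, among them Ptprc, Adgre1 and Csf1r, summed to 5.62, 8.09, 16.2 and 13.6 in CT db, 34.5, 11.6, 3.46 and 14.1 in db/db, 3.64, 32.4 and 16.7 in CT ob and 3.74, 11.6 and 11.2 in ob/ob CPM. The 9 endothelial markers, with Egfl7 the most abundant and 6 at 0 in some library, among them Cdh5, Kdr and Tek, summed to 5.90, 7.45, 14.8 and 11.2 in CT db, 16.6, 13.8, 15.6 and 7.81 in db/db, 27.6, 51.9 and 27.6 in CT ob and 16.5, 17.1 and 12.6 in ob/ob CPM.

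Of the 392 Zfp genes, 378 had a count in some library and 14 had none, and 153 stayed below the floor. The floor was decided mostly by the smaller or lower libraries: the lowest count of a member lay in a db/db library for 137 members, in CT ob for 96, in CT db for 5 and in ob/ob for 1. Just inside the floor, with a lowest count of 10, were 13 members, among them Zfp189 and Zfp27 (both lowest in HOM_53) and Zfp273, Zfp442 and Zfp595 (lowest in obHet_68). Just outside, with a lowest count of 9, were 5 genes: Zfp202 (HOM_68), Zfp420 (HOM_53), and Zfp551, Zfp712 and Zfp72 (obHet_68). The members near the floor ranged up to 84 counts for Zfp189 and 202 counts for Zfp442 in their highest library. All 239 members passed the separate filter on low counts in each of the 5 comparisons below, beside 67 Zfp genes below the floor in the db model and 87 in each of the other comparisons, which are not counted as members.

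The members fell into kinds that were read from the coding sequence of 1 transcript per gene. A KRAB core, meaning at most 2 mismatches to the 6 residues at the heart of the KRAB A box, together with C2H2 fingers was found in 125 members, called KRAB members here. Another 107 had C2H2 fingers and no KRAB core, called members with C2H2 fingers alone here. Other domains were not searched for, and a KRAB box with more mismatches would be missed. No C2H2 finger was found in 5: Zfp36, which encodes tristetraprolin, a protein with fingers of another type that destabilizes mRNAs with AU-rich elements, and Zfp185, Zfp330, Zfp839 and Zfp1008, the last with a KRAB core. Zfp125 and Zfp783 are annotated as transcribed pseudogenes and have no protein. KRAB members had a median of 12 fingers (2 to 23) and members with C2H2 fingers alone a median of 8 (1 to 36), with median protein lengths of 583 and 581 residues. GC content of the transcripts differed more, with a median of 41.3% in KRAB members, 49.7% in members with C2H2 fingers alone and 49.5% in all genes that met the floor.

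By position, the members lay on 20 chromosomes, with 51 on chromosome 7, 33 on chromosome 17, 18 on chromosome 8, 17 on chromosome 13 and 16 on chromosome 6 (annotation build GRCm39). Runs of at least 3 members with starts no more than 500 kb apart numbered 20 and held 115 members (48.1%). KRAB members made up 85 of these 115, while 27 of the 107 members with C2H2 fingers alone stood in a run. Sequence likeness limits how well reads of such genes can be assigned. Windows of 75 bases were compared between members and 1 transcript per gene of the deposited table. Genes overlapping the span of a member were left out, so sharing can be understated. By this measure 161 members shared none with another gene, 43 shared over 1% and 14 over 10%. The highest shares among the members named below were 32.3% for Zfp932 (mostly with Gm15446), 29.5% for Zfp442, 25.2% for Zfp937, 17.5% for Zfp975 (with Zfp976), 14% for Zfp976 and 11.9% for Zfp959 (with Zfp119a). Exons of 91 members overlapped another gene, 82 of them on the other strand, and the strand setting of the counts is not stated.

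Levels were low and spread widely. Per kb of exon, the scale on which genes can be set beside each other, the median member had 3.57 CPM per kb (0.433 to 35.6), and the median gene that met the floor had 6.42 CPM per kb. KRAB members and those with C2H2 fingers alone had medians of 3.54 and 3.56 CPM per kb. The highest median levels were those of Zfp277 (35.6 CPM per kb), which encodes a C2H2 protein that interacts with Polycomb group proteins, the KRAB member Zfp266 (33.5), and Zfp207 (33.0), whose product BuGZ binds BUB3 and microtubules at the mitotic spindle. Then came Zfp706 (30.4 CPM per kb), Zfp260 (26.8), Zfp422 (24.2) and Zfp958 (20.4). Zfp125 (19.8 CPM per kb), Zfp445 (19.4), whose product acts with ZFP57 in imprinting control, and Zfp783 (19.1) completed the 10 highest. Neighbours in this order lay within the spread of the libraries: Zfp266 ranged from 15.7 to 46.3 CPM per kb and Zfp207 from 19.9 to 43.5.

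Within groups, the median SD of members was somewhat above that of all genes that met the floor. Members also had a lower median level (22.2 against 43.1 CPM), and the difference in SD was not tested. The median within-group SD on the log2 CPM scale was 0.301 for members, 0.333 for KRAB members, 0.272 for members with C2H2 fingers alone and 0.262 for all genes that met the floor. The steadiest members were Zfp157 (SD 0.0824), Zfp207 (SD 0.0897) and Zfp410 (SD 0.106), whose product is known as an activator of Chd4. Zfp410 had 81.8, 76.4, 77.1 and 71.7 CPM in CT db, 69.0, 62.8, 60.6 and 65.9 in db/db, 60.8, 63.3 and 53.2 in CT ob and 83.9, 74.1 and 64.6 in ob/ob. The least steady were Zfp36 (SD 1.23), Zfp951 (SD 0.756) and Zfp995 (SD 0.662). Zfp36, an immediate early gene, had 13.5, 21.5, 43.1 and 52.6 CPM in CT db and 11.5, 49.9, 61.0 and 25.9 in db/db, and 8.24, 32.7 and 63.8 in CT ob and 31.7, 65.7 and 9.16 in ob/ob. It was low in some libraries and high in others of each group, and the groups overlapped.

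Summed over the 239 members, the level was lowest in CT ob. The summed CPM was 10222, 12483, 10133 and 10677 in CT db and 10091, 9306, 9348 and 11080.0 in db/db. It was 8664, 7875 and 6651 in CT ob and 9618, 9169 and 9923 in ob/ob. Every CT ob library lay below the 11 libraries of the other groups, with obHet_68 the lowest and het_51 the highest of all. As a share of library totals, without TMM scaling, CT ob overlapped ob/ob, with 0.932% in obHet_60 and 0.890% in obHOM_50. The group means were 10879 ± 1096 (SD, n = 4) in CT db, 9956 ± 831 (SD, n = 4) in db/db, 7730.0 ± 1014 (SD, n = 3) in CT ob and 9570.1 ± 379 (SD, n = 3) in ob/ob. In bulk samples such as these, fewer cells of a type and less RNA per cell cannot be told apart.

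The KRAB members showed the same order more widely. Their summed CPM was 4363, 6044, 4419 and 4623 in CT db, 4469.9, 3371, 3780.4 and 4741 in db/db, 3608, 3137 and 2150.5 in CT ob and 3937, 3865 and 4204 in ob/ob. Library obHet_68 had the lowest sum and het_51 the highest, and CT ob overlapped db/db through obHet_60. Members with C2H2 fingers alone summed to 5609, 6152, 5434 and 5771 CPM in CT db, 5394, 5731, 5337 and 6128 in db/db, 4869.8, 4541 and 4313 in CT ob and 5458, 5009 and 5492 in ob/ob. These sums were lowest in the 3 CT ob libraries with a narrower range, while as a share of library totals obHet_60 (0.524%) lay above HOM_24 (0.507%) and obHOM_50 (0.486%). By median deviation, obHet_68 and het_51 stood apart mainly in the KRAB members (-0.83 and 0.52), with -0.07 and 0.00 in members with C2H2 fingers alone. In HOM_81 these medians were 0.28 and 0.16. As a share of library totals, obHet_68 was also the lowest in members with C2H2 fingers alone (0.345%).

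**Figure D1:**
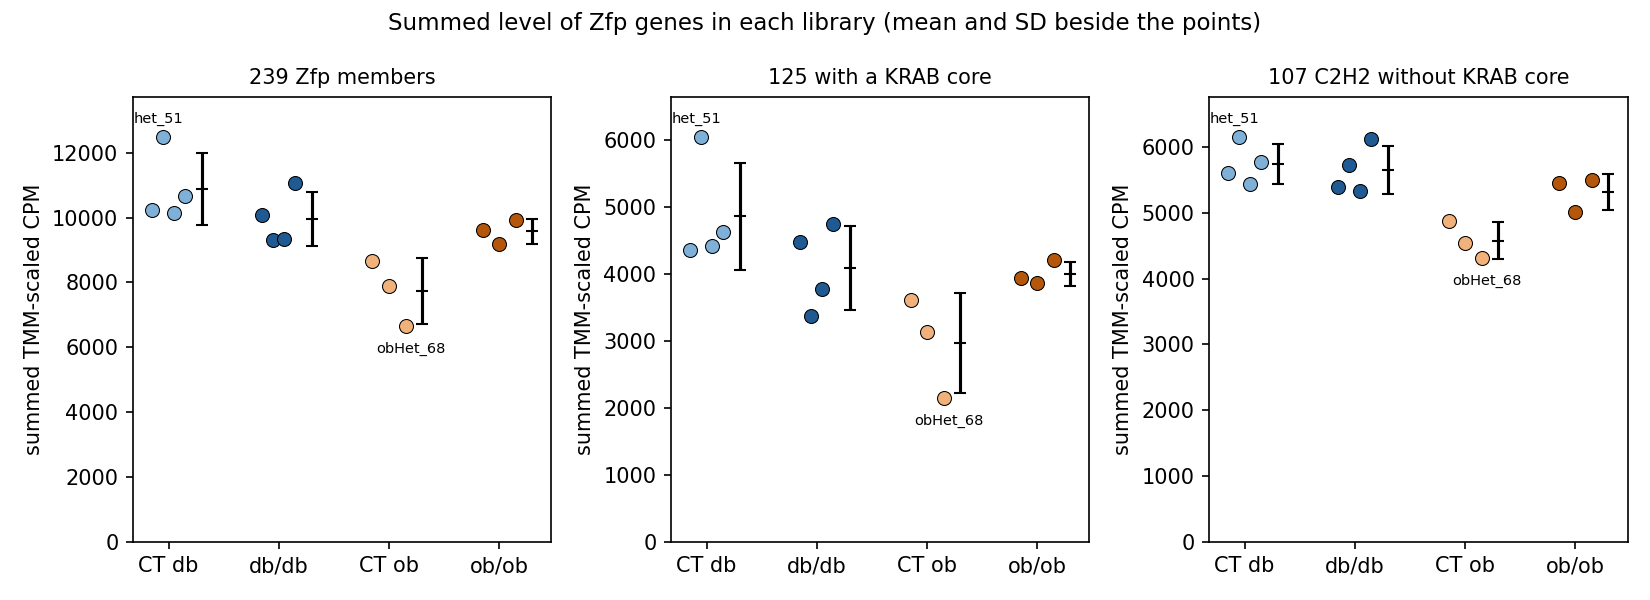
Summed TMM-scaled CPM in each library (1 point per library, bars give mean and SD of a group) for all 239 members, the 125 KRAB members and the 107 members with C2H2 fingers alone. The 3 CT ob libraries lie lowest in the sum over all members, and the KRAB sum spreads from 2150 in obHet_68 to 6044 in het_51.

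The lean control groups of both models were compared with each other. Model and colony cannot be told apart in this comparison, and neither can anything else that differed between the CT ob and CT db mice or their handling. Many members were lower in CT ob than in CT db. Most of those called lower were KRAB members in the fit of all libraries, but not with obHet_68 left out. Of the 239 members, 35 fell and 2 rose (edgeR quasi-likelihood, Benjamini-Hochberg adjusted p of 0.05 or less over 12586 genes tested), 37 in all or 15.5%. Among all genes tested 834 were called (6.63%), with 4.39% lower and 2.24% higher. Among the 9643 genes that met the floor the share was 7.8%, with 5.35% lower and 2.45% higher, while 14.6% of the members were lower and 0.837% higher. The median log2 fold change was -0.27 for members, 0.04 for genes that met the floor and 0.06 for all genes tested. In 80 members each CT ob library lay below each CT db library and in 12 each lay above, where 12.9% and 10.3% of the genes that met the floor did so. Without obHet_68 these were 86 and 20 members, beside 17.2% and 15.4% of the genes that met the floor, and without het_51 82 and 16 members, beside 14% and 11.2%.

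By kind, 26 of the 125 KRAB members fell (20.8%) and 0 rose, with a median log2 fold change of -0.57 and a negative value in 101. The edgeR test gave 63 KRAB members (50.4%) an unadjusted p under 0.05, beside 26.9% of all genes tested, and DESeq2 also called 0 KRAB members higher. Those that fell numbered 4 without obHet_68, 5 without het_51 and 8 without het_75. Of the 107 members with C2H2 fingers alone, 7 fell and 2 rose, with a median of 0.07. Those that fell numbered 3 without obHet_68 or het_51 and 4 without het_69 or het_75. Side by side, 4 of 125 and 3 of 107 fell without obHet_68, and 5 of 125 and 3 of 107 without het_51. The larger share of KRAB members that fell thus rested on these libraries. The 2 that rose were Zfp41 (log2 fold change 0.59 ± 0.16 SE, adjusted p = 0.0409) and Zfp618 (1.2 ± 0.34 SE, adjusted p = 0.0481), named after their values were seen because no other member rose. Of the 14 fits that left out 1 library, 10 ended the call of Zfp41 and 11 that of Zfp618, those without obHet_68 and het_51 among them. The log2 fold change of Zfp41 was 0.39 without obHet_60, 0.68 without obHet_68 and 0.59 without het_51. That of Zfp618 was 0.50 without obHet_68 and 1.17 without het_51. Zfp618 had 17.1, 15.3, 10.4 and 19.6 CPM in CT db and 23.6, 21.2 and 62.8 in CT ob. By number of fingers, 3 of 32 members with 1 to 4 fingers fell, 5 of 65 with 5 to 9, 13 of 83 with 10 to 14 and 12 of 52 with 15 or more. In the same order these were 1, 1, 3 and 2 without obHet_68, 1, 1, 3 and 3 without het_51, and 1, 2, 5 and 4 without het_75. Members sharing at most 1% of their windows with other genes included 22 that fell of 196 (11.2%), with 3 without obHet_68, 4 without het_51, 8 without het_75 and 14 without obHet_60. The 35 that fell had a median log2 fold change of -1.19 (-1.95 to -0.60). In each of them the CT ob libraries lay below the CT db libraries without overlap. These members were chosen by p in this same comparison, so the separation is not further support.

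The number called rested on single libraries more than the direction did. Without obHet_68, 8 members fell and 0 rose by edgeR, 4 of them KRAB members, and calls over all genes tested dropped to 112 of 13180 (0.85%). All 8 were among the 37. The median log2 fold change was then -0.16 for members and -0.45 for KRAB members, with 91 of 125 KRAB values negative. Without het_51 8 members fell, all among the 37, with 138 of 12488 genes called (1.11%), and the KRAB median was -0.44. In each of the 14 fits that left out 1 library, Zfp260, Zfp277, Zfp711, Zfp932, Zfp950, Zfp959 and Zfp975 stayed called. Without het_75 the number called was 12, beside 201 of 12520 genes tested (1.61%), and without het_69 it was 24, beside 482 of 12603 (3.82%). A fit of only the control groups called 0 members, and 3 of all 11876 genes tested (0.0253%). On all groups edgeR gave 100 members (41.8%) an unadjusted p under 0.05, beside 26.9% of all genes tested, and DESeq2 called 58 members (24.3%), beside 1563 of all genes tested (12.4%). With library totals in place of TMM scaling edgeR called 8 members (3.35%), 265 of all genes tested (2.11%) and 2.37% of those that met the floor. With no filter beyond 1 count it called 60 members (25.1%), 1727 of 34753 genes tested (4.97%) and 12.3% of those that met the floor. The KRAB median was negative in all alternatives run, from -0.76 (without obHet_60) to -0.44, and that of members with C2H2 fingers alone lay between -0.02 and 0.08.

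Some other measures moved along with this difference. Genes of low GC content made up most of those that fell: of the genes that met the floor, 467 of 4818 below the median GC content fell (9.69%) and 49 of 4817 above it (1.02%). These were 80 and 12 without obHet_68, 94 and 13 without het_51, 139 and 14 without het_75, 312 and 26 without het_69, and 215 and 15 without obHet_60. The median log2 fold change was -0.22 below that GC content and 0.26 above it, and -0.58 and 0.31 for the members. Members below that median fell in 35 of 164 cases (21.3%), and these were all of the 35 that fell, with 8 without obHet_68 or het_51, 12 without het_75 and 23 without het_69. Of the granulosa markers, Gja1 (-1.47 ± 0.19 SE, adjusted p = 0.00222) and Fshr, the receptor for follicle-stimulating hormone (-1.72 ± 0.35 SE, adjusted p = 0.0163), were lower in CT ob, 2 of 15 tested. Without obHet_68 Fshr was not called by edgeR, with a log2 fold change of -1.81 ± 0.42 SE (adjusted p = 0.0570). At an unadjusted p under 0.05 were 7 of the 15, DESeq2 called 4, and 7 had a positive log2 fold change (median -0.16), among them Amhr2 (0.88), Foxl2 (0.57) and Serpine2 (0.48). Of the 20 oocyte markers 17 were tested, each with a positive log2 fold change (median 1.91, or 0.61 without obHet_60), and edgeR called 0, with 7 at an unadjusted p under 0.05, where DESeq2 called 0. The theca, leukocyte and endothelial lists had 10, 3 and 4 genes tested, of which edgeR called 0, 0 and 0, with 0, 0 and 2 at an unadjusted p under 0.05, and DESeq2 called 0, 0 and 1. Theca markers had a median of 0.75 (8 of 10 positive, but -0.52 without obHet_65) and endothelial markers 0.97 (3 of 4 positive), and edgeR called 1 endothelial marker without obHet_68, obHet_60 or any 1 ob/ob library. The summed CPM of endothelial markers was higher in each CT ob library than in the 11 others, and that of granulosa markers was lower, as was the sum over the members. Gja1 alone made up 5584 to 20814 CPM of the granulosa sum over the libraries. The part of GC content, other cell types, depth and the low scaling factor of obHet_68 in the result was not tested.

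**Figure D2:**
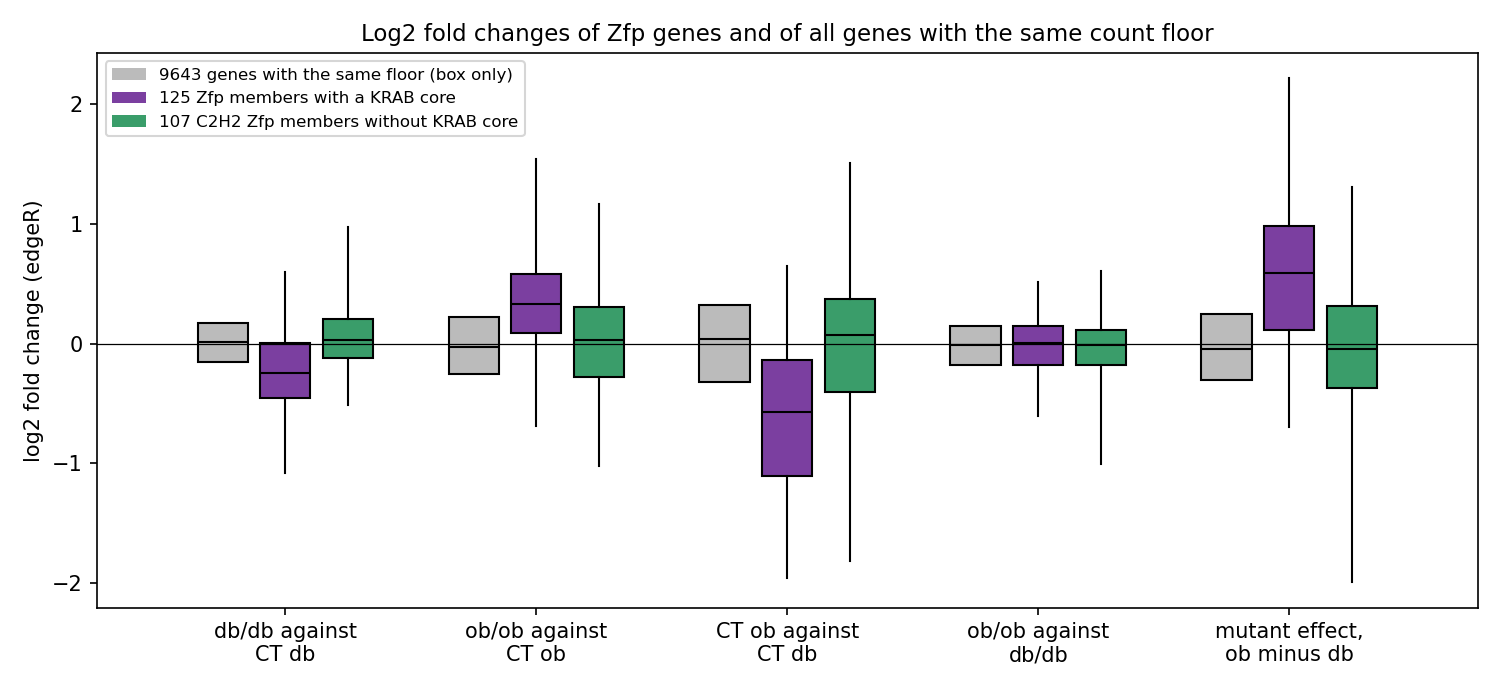
Log2 fold changes (edgeR) in the 5 comparisons. Boxes show the 9643 genes that met the floor, the 125 KRAB members and the 107 members with C2H2 fingers alone. Whiskers of the member boxes reach the lowest and highest value. KRAB members lie lowest in CT ob against CT db (median -0.57) and near 0 in ob/ob against db/db.

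The 10 members with the smallest p between the control groups are given with all their values. Zfp711 (ENSMUSG00000025529, chromosome X, 111510223 to 111544836), an X-linked activator that works with the demethylase PHF8, had 25.6, 50.9, 54.1 and 65.2 CPM in CT db and 16.1, 14.7 and 10.6 in CT ob. It had 50.7, 43.4, 47.6 and 49.0 CPM in db/db and 37.4, 29.9 and 26.3 in ob/ob. Each CT ob library lay below all others, and within CT db het_37 was the lowest. The log2 fold change of CT ob against CT db was -1.81 ± 0.27 SE (adjusted p = 0.00558). The KRAB member Zfp975 (ENSMUSG00000069727, chromosome 7, 42309527 to 42342226, 14 fingers) had 63.8, 108, 65.9 and 62.2 CPM in CT db and 24.5, 21.2 and 11.6 in CT ob. Its values were 37.5, 27.5, 26.4 and 51.2 CPM in db/db and 38.2, 44.3 and 46.5 in ob/ob. Library het_51 was far above its group, obHet_68 was the lowest of all, and the mutant groups lay between the control groups. The difference between the controls was -1.95 ± 0.30 SE (adjusted p = 0.00558), the lowest of all members called.

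Zfp260 (ENSMUSG00000049421, chromosome 7, 29794202 to 29807048), known as a cardiac regulator with C2H2 fingers alone, had 172, 226, 184 and 199.9 CPM in CT db and 108, 97.0 and 76.8 in CT ob. In the mutants it had 127, 123, 137 and 163 CPM (db/db) and 167, 154 and 171 CPM (ob/ob). CT db was highest, CT ob lowest, and neither overlapped any other group. The control difference came to -1.05 ± 0.16 SE (adjusted p = 0.00558). Zfp277 (ENSMUSG00000055917, chromosome 12, 40364888 to 40495901), the member with the highest level per kb, had 426, 713, 785 and 767 CPM in CT db and 232, 266 and 231 in CT ob. It stood at 621, 841, 500.2 and 833 CPM in db/db and 483, 379 and 471 in ob/ob. The 3 CT ob libraries were close together and lowest, here with obHet_68 beside obHet_60. The fold change was -1.47 ± 0.23 SE on the log2 scale (adjusted p = 0.00659). The KRAB member Zfp950 (ENSMUSG00000074733, chromosome 19, 61041343 to 61129278, 17 fingers) had 144, 245, 157 and 172 CPM in CT db, 172, 139, 164 and 182 in db/db, 92.4, 76.6 and 75.1 in CT ob and 144, 145 and 152 in ob/ob. CT ob lay below the other groups, which overlapped, and obHet_68 was close to obHet_65. Its control difference was -1.14 ± 0.18 SE (adjusted p = 0.00659).

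Zfp932 (ENSMUSG00000066613, chromosome 5, 110144035 to 110160002), a KRAB member known with its relative Gm15446 for silencing endogenous retroviruses, had 62.4, 73.2, 62.3 and 56.2 CPM in CT db and 26.5, 25.4 and 10.6 in CT ob. It had 44.7, 31.0, 34.2 and 40.9 CPM in db/db and 32.9, 45.9 and 53.0 in ob/ob, between the controls. The control groups differed by -1.59 ± 0.27 SE (adjusted p = 0.00901), with obHet_68 far below the other CT ob libraries. Zfp959 (ENSMUSG00000003198, chromosome 17, 56199060 to 56205936, KRAB, 9 fingers) had 30.1, 44.9, 40.4 and 37.6 CPM in CT db, 24.3, 13.3, 15.6 and 25.6 in db/db, 15.9, 13.0 and 8.19 in CT ob and 18.6, 24.4 and 22.3 in ob/ob. CT db was above every other group, and db/db overlapped both groups of the ob model. The log2 difference of the controls was -1.61 ± 0.27 SE (adjusted p = 0.00922). Zfp1007 (ENSMUSG00000072763, chromosome 5, 109822411 to 109838907, KRAB, 19 fingers) had 46.1, 106, 52.7 and 66.5 CPM in CT db and 26.5, 16.2 and 12.6 in CT ob. Its mutant values were 45.6, 37.0, 35.9 and 80.6 CPM in db/db and 65.6, 47.5 and 49.6 in ob/ob. Only CT ob was separate from the other groups, and het_51 and HOM_81 were the highest. Between the controls the difference was -1.86 ± 0.36 SE (adjusted p = 0.0139).

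The last of the 10 were the KRAB members Zfp53 and Zfp873. Zfp53 (ENSMUSG00000057409, chromosome 17, 21709169 to 21730741, 15 fingers) had 44.1, 58.1, 42.0 and 61.1 CPM in CT db, 35.8, 26.7, 35.5 and 42.8 in db/db, 29.9, 21.9 and 17.1 in CT ob and 26.7, 32.4 and 43.5 in ob/ob. Both controls were apart from each other, while the mutants overlapped each other and both controls. The difference was -1.15 ± 0.24 SE (adjusted p = 0.0179), and 5 of 20 other settings ended this call, among them those without obHet_68 (adjusted p = 0.0739), het_51 (0.0576) and het_75 (0.0530). Zfp873 (ENSMUSG00000061371, chromosome 10, 81883923 to 81901619, 16 fingers) had 57.3, 82.6, 60.7 and 64.9 CPM in CT db, 41.8, 29.3, 48.0 and 56.8 in db/db, 38.7, 31.2 and 22.2 in CT ob and 57.2, 42.5 and 56.3 in ob/ob. CT db was highest in all of its libraries, and db/db overlapped both groups of the ob model. The difference was -1.10 ± 0.24 SE (adjusted p = 0.0199). This call was lost in 4 of 20 settings, among them those without obHet_68 (-0.94, adjusted p = 0.0765) and het_51 (-0.98, adjusted p = 0.0644). The other 8 members named here lost their call in the fit of only the control groups, where adjusted p was 0.0524 or more, and Zfp1007 also without obHet_68 (-1.68, adjusted p = 0.0611).

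**Figure D3:**
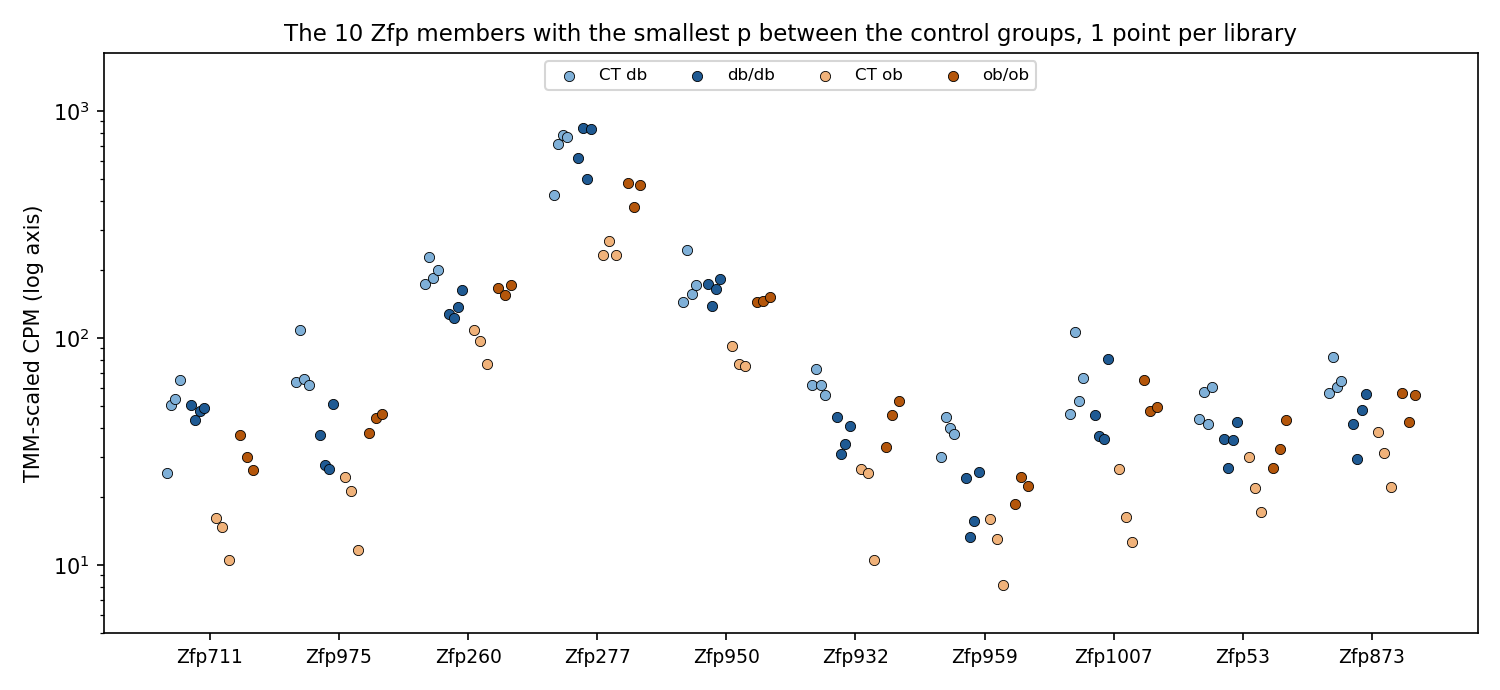
TMM-scaled CPM (log axis) of the 10 members with the smallest p between the control groups, 1 point per library, coloured by group. CT ob libraries lie below CT db libraries for each of the 10, from 10.6 to 16.1 against 25.6 to 65.2 CPM for Zfp711.

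The difference between the controls is described here by position, and runs were not tested against each other. The run with the most members, on chromosome 17 from 21229165 to 23818522, held 19 members, 18 of them KRAB members: Zfp160, Zfp51, Zfp53, Zfp52, Zfp948, Zfp983, Zfp760, Zfp229, Zfp820, Zfp995, Zfp942, Zfp943, Zfp944, Zfp758, Zfp946, Zfp945, Zfp40, Zfp213 and Zfp13. Its median log2 fold change was -1.15, with 17 of 19 values negative, and Zfp40, Zfp51, Zfp53, Zfp760, Zfp942, Zfp943, Zfp944 and Zfp945 fell. The median was -0.90 without obHet_68, -0.95 without het_51 and -1.09 without het_75, and edgeR then called 0 of the 19. Without het_69 or obHet_60 5 fell, and DESeq2 on all libraries called 13 of the 19, beside 12.4% of all genes tested. The values that were not negative were those of the last genes of the run, Zfp213 (0.41) and Zfp13 (0.16). No KRAB core was found in Zfp213. In the other comparisons the median of this run was -0.34 in db/db against CT db, 0.54 in ob/ob against CT ob and -0.15 in ob/ob against db/db. These comparisons share control or mutant libraries, so their values are not independent.

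The second run, on chromosome 17 from 32984470 to 33850753, held Zfp871, Zfp799, Zfp870, Zfp472, Zfp952, Zfp763, Zfp563, Zfp81, Zfp101 and Zfp414, 9 of them KRAB members. The median between the controls was -0.37, and Zfp81 (-1.16), Zfp101 (-0.92) and Zfp871 (-0.74) fell. Without obHet_68, het_51 or het_75 edgeR called 0 of these 10, with medians of -0.22, -0.30 and -0.44, and without obHet_60 it called 1. DESeq2 called 3 with all libraries, beside 12.4% of all genes tested. The third, on chromosome 7 from 29467960 to 29869215, held Zfp84, Zfp30, Zfp790, Zfp940, Zfp27, Zfp383, Zfp74, Zfp568, Zfp260 and Zfp146, 8 of them KRAB members. Among these is Zfp568, known as a repressor of a placental promoter of Igf2, with a log2 fold change of 0.15 that was not called. The median of the third run was 0.01 (-0.19 without obHet_60), and Zfp260, which lacks a KRAB core, was its 1 member that fell, with each library left out in turn as well. Over the 20 runs the medians lay between -1.26 and 0.32, 15 of 20 were negative, and 9 runs held a member called, with 2 without obHet_68 or het_51, 3 without het_75 and 6 without het_69. Without obHOM_41 it was 11 runs, and by DESeq2 on all libraries 16. On all libraries edgeR called 19 of 115 members in runs (16.5%) and 18 of 124 outside runs (14.5%). Of all genes tested it called 6.63%. The members called in runs were 2 without obHet_68 or het_51 and 3 without het_75. The lowest medians were those of runs of 3 members, Zfp141, Zfp976 and Zfp975 on chromosome 7 (-1.26, 2 called) and Zfp120, Zfp937 and Zfp442 on chromosome 2 (-1.24, 1 called). Without obHet_68, het_51 or het_75 the call of Zfp976 and that of Zfp937 were lost, and Zfp975 stayed called. KRAB members fell in 16 of 85 cases inside runs (18.8%) and in 10 of 40 outside them (25%). These were 1 and 3 without obHet_68, 1 and 4 without het_51, and 2 and 6 without het_75.

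**Figure D4:**
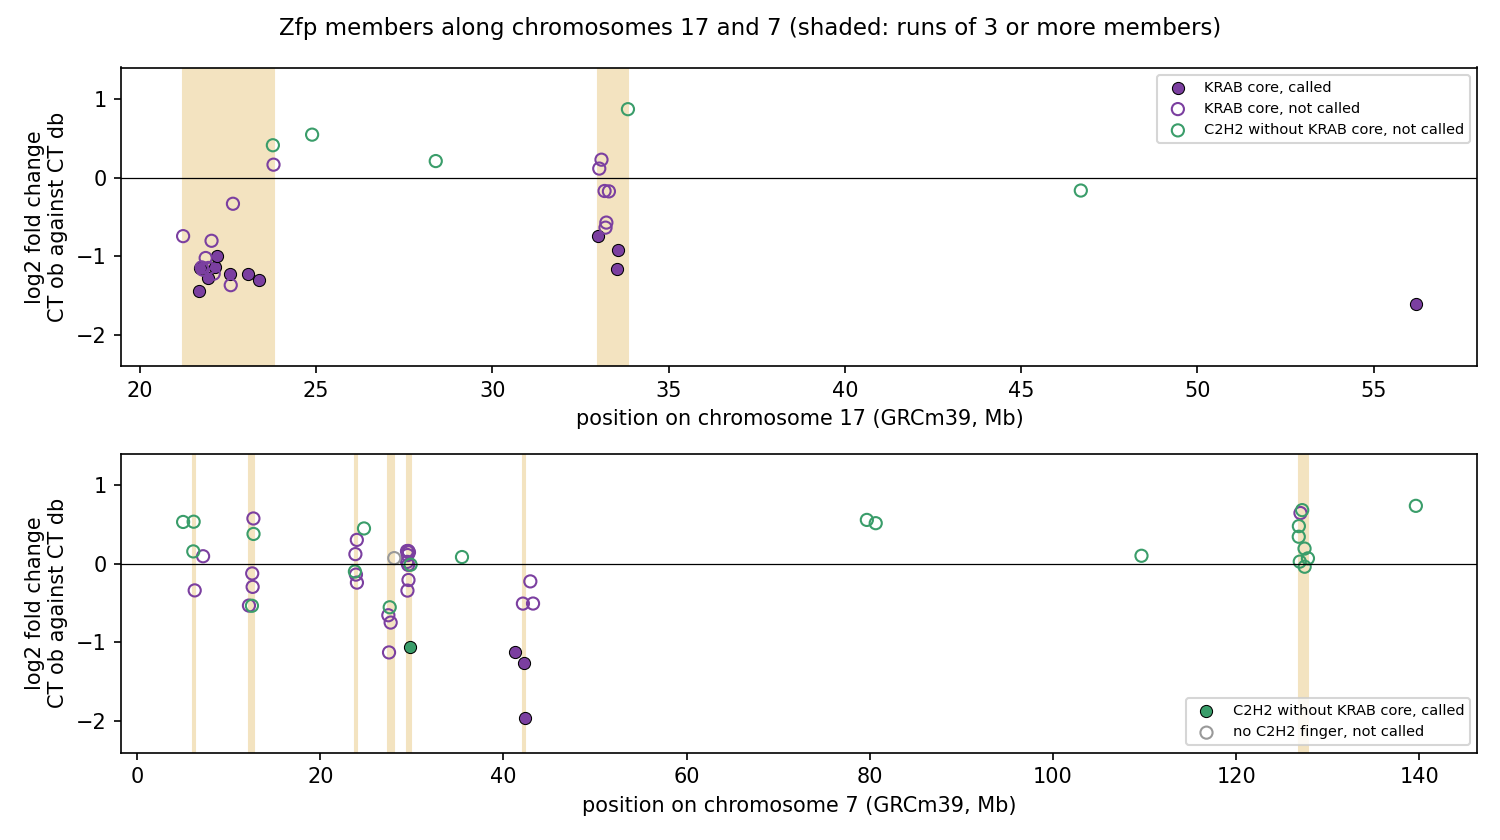
Log2 fold change of CT ob against CT db (edgeR) for members along chromosomes 17 and 7, against the start of the gene in Mb (GRCm39), with runs of 3 or more members shaded and filled points for members called. The run at the left of chromosome 17 has a median of -1.15, and the run near 29.5 Mb of chromosome 7 has a median of 0.01.

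The db/db mice were compared with their own lean controls for the effect of the missing long leptin receptor. No member was called: edgeR called 0 of 239, with 28 at an unadjusted p under 0.05 (11.7%), and DESeq2 called 3 (1.26%). Among all 11317 genes tested edgeR called 1 (0.00884%), and among the genes that met the floor 0%. Of all genes tested 7.59% had an unadjusted p under 0.05 and DESeq2 called 44 (0.389%). With no filter beyond 1 count edgeR called 10 members (4.18%) and 270 of 28505 genes (0.947%), a set mostly below the floor. The median log2 fold change was -0.10 for members (146 of 239 negative), -0.25 for KRAB members (93 of 125 negative) and 0.03 for members with C2H2 fingers alone, beside 0.01 for genes that met the floor. Without het_51 it was -0.05 for members and -0.13 for KRAB members. Below and above the median GC content it was -0.05 and 0.06 for genes that met the floor, and -0.21 and 0.08 for members. Medians were -1.56 for oocyte markers (8 of 9 negative, -0.69 without het_51), 0.41 for theca markers (7 of 9 positive, 0.12 without HOM_24) and -0.14 for granulosa markers (9 of 15 negative, 0.10 without HOM_81). Of these edgeR called 0, with 1, 2 and 1 at an unadjusted p under 0.05, and DESeq2 called 0, and their part in the values of the members was not tested. In 11 members each db/db library lay below each CT db library and in 1 each lay above, where 2.35% and 1.87% of the genes that met the floor did so. The common biological coefficient of variation, edgeR's measure of the spread between libraries, was 0.231 in this fit.

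The 5 members with the smallest p in this comparison did not pass the edgeR test, while DESeq2 called 3 of them. With no filter beyond 1 count edgeR called 4 of them. Zfp125 (ENSMUSG00000069755, chromosome 12, 20948575 to 20952660) had 57.3, 91.3, 62.9 and 74.7 CPM in CT db and 42.6, 31.0, 34.6 and 36.8 in db/db. In the ob model it had 39.9, 30.4 and 10.6 CPM in CT ob and 55.8, 57.2 and 64.6 in ob/ob. This pseudogene shares 8% of its windows with other genes, mostly Gm38699, and its db/db libraries all lay below CT db. The log2 fold change of db/db against CT db was -0.99 ± 0.18 SE (unadjusted p = 1.49e-04, adjusted p = 0.363). For Zfp932 it was -0.76 ± 0.16 SE (adjusted p = 0.363) and for Zfp975 -1.07 ± 0.25 SE (adjusted p = 0.363). Zfp959 (-0.95 ± 0.23 SE, adjusted p = 0.376) and Zfp260 (-0.51 ± 0.14 SE, adjusted p = 0.450) followed. In each of these 5 members, which were chosen by p, the db/db libraries lay below the CT db libraries without overlap.

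The ob/ob mice were compared with CT ob for the effect of missing leptin. Again edgeR called 0 of 239 members, with 32 at an unadjusted p under 0.05 (13.4%), and DESeq2 called 5 (2.09%). Of all 12425 genes tested and of the genes that met the floor, edgeR called 0%. An unadjusted p under 0.05 was found for 8.16% of all genes tested, and DESeq2 called 86 (0.692%). With no filter beyond 1 count edgeR called 11 members (4.6%) and 359 of 32006 genes (1.12%), a set mostly below the floor. The median log2 fold change was 0.20 for members (164 of 239 positive), 0.33 for KRAB members (100 of 125 positive) and 0.03 for members with C2H2 fingers alone, beside -0.03 for genes that met the floor. Genes below the median GC content had a median of 0.13 and those above it -0.16, and members 0.37 and -0.20. The 15 granulosa markers had a median of 0.45 (-0.01 without obHOM_41), theca markers -1.13 (9 of 11 negative, but 0.11 without obHet_65), endothelial markers -0.91 (3 of 3 negative) and oocyte markers -0.00 (9 of 17 negative, but 1.19 without obHet_60). In this order edgeR called 0 of them, with 5, 2, 1 and 1 at an unadjusted p under 0.05, where DESeq2 called 1, 1, 0 and 0. The part of GC content and of the markers in the values of the members was not tested. Each ob/ob library lay above each CT ob library in 48 members and below in 9, where 8.88% and 7.65% of the genes that met the floor did so. The coefficient of variation was 0.326, larger than in the db model. Without obHet_68 the median was 0.10 over the members and 0.18 over KRAB members, and edgeR called 0 members. Without obHet_60 these medians were 0.33 and 0.49.

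In this comparison the smallest p belonged to Zfp1007, with a log2 fold change of 1.54 ± 0.30 SE (unadjusted p = 8.34e-04, adjusted p = 0.539). Next were Zfp950 (0.85 ± 0.17 SE), Zfp277 (0.87 ± 0.19 SE), Zfp711 (1.16 ± 0.27 SE) and Zfp260 (0.80 ± 0.19 SE), each with an adjusted p of 0.539 by edgeR. DESeq2 called all 5, and edgeR with no filter beyond 1 count called 4 of them. For each of these 5, which were chosen by p, all 3 ob/ob libraries were above all 3 CT ob libraries, as shown above. The CT ob libraries are the same ones that were compared with CT db, so this direction and that of the control comparison are not independent.

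Whether the mutant effect differed between the models was tested as the difference of both effects, ob minus db. By edgeR 0 of 239 members were called, with 53 at an unadjusted p under 0.05 (22.2%), and by DESeq2 8 members (3.35%). The share called was 0% both for all 12586 genes tested and for those that met the floor. Of all genes tested 8.11% had an unadjusted p under 0.05 and DESeq2 called 72 (0.572%). With no filter beyond 1 count edgeR called 21 members (8.79%) and 329 of 34753 genes (0.947%), a set mostly below the floor. The median was 0.24 for members (154 of 239 positive) and 0.59 for KRAB members (100 of 125 positive), -0.05 for members with C2H2 fingers alone and -0.04 for genes that met the floor. Below and above the median GC content it was 0.16 and -0.22 for genes that met the floor, and 0.56 and -0.24 for members. Medians were 1.58 for oocyte markers (17 of 17 positive, 0.59 without het_51), -1.75 for theca markers (10 of 10 negative, -0.59 without obHet_65), -1.07 for endothelial markers (4 of 4 negative) and 0.32 for granulosa markers (11 of 15 positive, 0.77 without obHet_68). In this order edgeR called 0 of them, with 0, 2, 0 and 2 at an unadjusted p under 0.05, and DESeq2 called 0, 0, 0 and 1. The part of GC content and of the markers was not tested here either. Zfp260 had the smallest p, with a log2 difference of 1.30 ± 0.22 SE (unadjusted p = 2.80e-05, adjusted p = 0.176). Zfp975 (2.21 ± 0.40 SE), Zfp932 (1.81 ± 0.37 SE), Zfp125 (2.09 ± 0.42 SE) and Zfp959 (1.75 ± 0.38 SE) followed, each with an adjusted p of 0.189 by edgeR. DESeq2 called all 5 of these members, as did edgeR with no filter beyond 1 count. For these members db/db lay below CT db and ob/ob above CT ob, and the difference contains the control libraries of both models. Without obHet_60 the median over the members was 0.39, without obHet_68 0.21 and without het_51 0.20.

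Between the mutants, ob/ob against db/db, the members showed little difference. The edgeR test called 0 of 239, with 7 at an unadjusted p under 0.05 (2.93%), and DESeq2 called 0. Of all 12586 genes tested edgeR called 2 (0.0159%), and 1 of those that met the floor (0.0104%). An unadjusted p under 0.05 was found for 8.19% of all genes tested, and DESeq2 called 72 (0.572%). The median log2 fold change was -0.00 for members and 0.01 for KRAB members, with 117 members positive and 122 negative. Oocyte markers had a median of 3.66 (17 of 17 positive), theca markers -1.23 (8 of 10 negative, -0.34 without HOM_24) and granulosa markers 0.23 (9 of 15 positive, -0.27 without obHOM_41). Of these edgeR called 0, with 16, 2 and 2 at an unadjusted p under 0.05, and DESeq2 called 1, 0 and 0. All ob/ob libraries lay above all db/db libraries in 5 members and below in 10, where 4.04% and 4.53% of the genes that met the floor did so. Model and colony cannot be told apart here either.

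Zfp277 had the smallest p of this comparison (-0.65 ± 0.23 SE, adjusted p = 0.402), with each ob/ob library below each db/db library. Zfp821 (ENSMUSG00000031728, chromosome 8, 110431407 to 110452790) had 10.2, 14.6, 11.7 and 17.2 CPM in db/db and 20.8, 20.3 and 20.7 in ob/ob, beside 13.8, 13.0, 20.9 and 13.1 in CT db and 21.1, 16.5 and 21.2 in CT ob. The ob/ob libraries were close together and above db/db, by 0.61 ± 0.24 SE (adjusted p = 0.464). Zfp644 (ENSMUSG00000049606, chromosome 5, 106764404 to 106845153), a partner of the histone methyltransferases G9a and GLP, had 81.4, 85.2, 108 and 86.8 CPM in db/db and 79.0, 59.2 and 65.0 in ob/ob. In the controls it had 69.1, 89.2, 70.3 and 91.4 CPM (CT db) and 58.9, 61.6 and 55.3 CPM (CT ob). The ob/ob libraries lay below db/db by -0.42 ± 0.16 SE (adjusted p = 0.464). Zfp711 (-0.61 ± 0.25 SE, adjusted p = 0.517) and Zfp125 (0.71 ± 0.30 SE, adjusted p = 0.524) also did not pass the test.

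The proteins that KRAB members act through were read from a list of 38 genes of co-repressors and heterochromatin, all tested in each comparison and all with counts in all 14 libraries. The summed CPM of the list was 6964, 6206, 5503 and 6199 in CT db, 5676, 5237, 5578 and 5379 in db/db, 5715, 6848 and 5946 in CT ob and 5344, 6439 and 5723 in ob/ob. The db/db sums lay just below those of CT ob, and the other groups overlapped. Rbbp7, a histone-binding subunit of deacetylase complexes, was the most abundant at 124 CPM per kb (median), and Trim28 stood at 92.7. Between the controls 3 fell and 3 rose, 6 of 38 (15.8%), beside 6.63% of all genes tested. An unadjusted p under 0.05 was found for 19, beside 26.9% of all genes tested, and DESeq2 called 11, beside 12.4%. Without obHet_68 or het_51 only Resf1 was called (adjusted p = 0.0478 and 0.0423), and without het_69, het_75 and obHOM_50 2, 2 and 3 genes were called. Resf1, a retroelement silencing factor, had 395, 511, 441 and 590.4 CPM in CT db and 286, 274 and 269 in CT ob and fell by 0.81 on the log2 scale (adjusted p = 0.0136). Tasor, a HUSH complex subunit, had 78.1, 148, 129 and 151 CPM in CT db and 74.8, 61.1 and 58.7 in CT ob (-0.96 ± 0.26 SE, adjusted p = 0.0403), and 8 of the 14 fits that left out 1 library ended its call. Cbx3, which encodes the HP1 gamma protein, had 93.6, 75.8, 74.7 and 91.4 CPM in CT db and 56.9, 52.9 and 36.5 in CT ob (-0.77 ± 0.20 SE, adjusted p = 0.0346), which was not called without obHet_68 (0.116), het_51 (0.0716) or het_75 (0.0898). In this order its log2 fold change was then -0.62, -0.82 and -0.73.

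Those that rose in CT ob act in DNA methylation and nucleosome remodelling, and none of them was called without obHet_68 or het_51. Uhrf1, which guides maintenance methylation, had 152, 96.2, 102 and 106 CPM in CT db and 201, 172 and 192 in CT ob (0.73 ± 0.19 SE, adjusted p = 0.0346, or 0.0995 without obHet_68 and 0.102 without het_51). Its log2 fold change was 0.70 without obHet_68 and 0.65 without het_51. The maintenance methyltransferase Dnmt1 had 145, 103, 132 and 155 CPM in CT db and 246, 195 and 175 in CT ob (0.62 ± 0.17 SE, adjusted p = 0.0441), and 12 of the 14 fits that left out 1 library ended its call. Chd3, a remodeller of the NuRD complex, had 16.0, 14.5, 13.5 and 25.4 CPM in CT db and 29.3, 25.7 and 61.8 in CT ob (1.16 ± 0.30 SE, adjusted p = 0.0374). Its highest value was that of obHet_68, without which the log2 fold change was 0.65 (adjusted p = 0.183). The median of the list was 0.06, equal to that of all genes tested to this precision.

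In the other comparisons edgeR called 0 of the 38 genes, and the 5 with the smallest p are given for each. At an unadjusted p under 0.05 were 5 genes in db/db against CT db, 3 in ob/ob against CT ob, 4 between the mutants and 4 for the difference of mutant effects. In this order 7.59%, 8.16%, 8.19% and 8.11% of all genes tested had such a p. DESeq2 called 0, 1, 0 and 1 of the 38, beside 0.389%, 0.692%, 0.572% and 0.572% of all genes tested. The 5 with the smallest p in db/db against CT db were Resf1 (-0.58, unadjusted p = 0.00273), Mphosph8 (-0.75), Rbbp7 (-0.80), Chd4 (0.51) and Dnmt3a (0.59), with adjusted p from 0.413 to 0.611. In ob/ob against CT ob they were Atrx (0.70, unadjusted p = 0.00489), Tasor (0.64), Morc3 (0.67), Cbx3 (0.52) and Chd3 (-0.63), with adjusted p from 0.539 to 0.671. Between the mutants they were Rbbp4 (-0.38), Dnmt1 (0.44), Uhrf1 (0.45), Setdb1 (0.33) and Cbx3 (-0.37), with adjusted p from 0.442 to 0.702. For the difference of mutant effects they were Resf1 (0.81), Morc3 (0.90), Atrx (0.75), Morc2a (-0.71) and Hdac1 (-0.46), with adjusted p from 0.305 to 0.609.

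Promoters of the members that fell between the controls were searched for 6 short motifs on both strands, in windows from 250 bases before to 50 after the start of the gene (RefSeq, build GRCm38.p6, not the build of the positions above). Windows were found for 193 of 239 members, for 27 of the 35 that fell and for 7595 genes that met the floor, among 27025 promoters in all. Of the 35 that fell 26 are KRAB members, and windows were found for 108 KRAB members. The list rests on the fit of all libraries: 8 of the 35 also fell without obHet_68, 8 without het_51 and 12 without het_75. CCAAT, the box bound by NF-Y, was in 70.4% of the members that fell, 58.3% of KRAB members, 50.8% of members, 39.6% of genes that met the floor and 37.9% of all promoters. GGGCGG, an SP motif, was in 48.1% of the members that fell, 38.0% of KRAB members, 49.2% of members, 68.5% of genes that met the floor and 35.9% of all promoters, and CCGGAAG, an ETS motif, in 18.5%, 22.2%, 20.7%, 21.3% and 9.12% in the same order. AANATGGC, a YY1 motif, was in 7.41%, 14.8%, 14%, 10.6% and 6.23%. The NRF1 consensus was in 0 of the 27 that fell, 5.56% of KRAB members, 8.81% of members, 12.3% of genes that met the floor and 4.78% of all promoters, and TGACGTCA, a CRE, in 0 of the 27, 3.70%, 3.11%, 3.61% and 1.88%. A match is a description and not a site. In the windows of Zfp975, Zfp950, Zfp932 and Zfp873 a CCAAT is followed by the same bases, ctgccagtcaga. These 4 windows thus share sequence beyond the motif. Windows alike in sequence were counted separately, so the 70.4% does not rest on 27 independent windows. How many of the 27 are alike was not tested. The windows of 4 KRAB members that fell are shown because CCAAT was the motif most frequent among them, with CCAAT or its reverse complement ATTGG in capitals, each on the strand of its gene: Zfp975 (chr7:42692669-42692968, minus strand), Zfp950 (chr19:61140791-61141090, minus), Zfp932 (chr5:109996260-109996559, plus) and Zfp873 (chr10:82047873-82048172, plus).
Zfp975: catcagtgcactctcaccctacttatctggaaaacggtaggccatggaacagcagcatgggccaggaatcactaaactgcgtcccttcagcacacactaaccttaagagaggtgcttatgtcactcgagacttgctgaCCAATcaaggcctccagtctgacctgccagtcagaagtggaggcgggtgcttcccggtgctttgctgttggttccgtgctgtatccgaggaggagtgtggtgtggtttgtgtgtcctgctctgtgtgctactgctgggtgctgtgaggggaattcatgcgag
Zfp950: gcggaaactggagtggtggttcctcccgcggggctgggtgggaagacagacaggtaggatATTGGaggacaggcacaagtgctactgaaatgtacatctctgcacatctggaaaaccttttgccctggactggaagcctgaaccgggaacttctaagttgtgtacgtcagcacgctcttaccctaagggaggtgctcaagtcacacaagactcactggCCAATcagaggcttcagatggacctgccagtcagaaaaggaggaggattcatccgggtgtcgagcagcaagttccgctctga
Zfp932: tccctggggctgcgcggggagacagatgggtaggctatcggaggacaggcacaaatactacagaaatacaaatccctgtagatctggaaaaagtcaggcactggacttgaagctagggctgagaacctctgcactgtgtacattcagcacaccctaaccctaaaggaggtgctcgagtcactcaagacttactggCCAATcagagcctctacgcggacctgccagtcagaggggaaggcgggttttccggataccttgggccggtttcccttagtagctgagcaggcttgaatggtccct
Zfp873: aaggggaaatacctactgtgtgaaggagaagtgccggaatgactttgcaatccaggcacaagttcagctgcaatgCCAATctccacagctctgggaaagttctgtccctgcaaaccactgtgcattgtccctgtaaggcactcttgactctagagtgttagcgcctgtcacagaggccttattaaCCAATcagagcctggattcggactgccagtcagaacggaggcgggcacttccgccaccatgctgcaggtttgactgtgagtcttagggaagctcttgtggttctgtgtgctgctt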

How the data were processed

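Bulk RNA-seq of granulosa cells was taken from 14 libraries in 4 groups. Columns of the deposited table were assigned to groups by the paper's supplement, which lists each column name under a genotype. The authors deposited raw counts per gene without normalization. The paper names cutadapt, STAR, GRCm39 and featureCounts, while the submitters' processing notes name FastQC, Trim Galore 0.6.2, HISAT2 2.1.0 and GRCm38, and this conflict was not settled. Neither states how reads matching several places were treated. Library totals ran from 2204686 to 8367593 counts, and a detection minimum of 3 counts equals 0.369 to 1.30 CPM.

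Symbols, positions and exon lengths came from GENCODE vM39 (GRCm39), which held 54749 of 55414 identifiers. In R 4.3.3, edgeR 4.0.16 fitted TMM-scaled counts after filterByExpr (minimum count 10, minimum total 15) with quasi-likelihood tests. Each model had a fit of its own, and 1 fit of the 4 groups gave the comparisons between controls, between mutants and of the mutant effects. Benjamini-Hochberg adjusted p-values cover all genes tested, and 0.05 or less was called. The SE given with a log2 fold change is its absolute value divided by the square root of the quasi-likelihood F statistic. Log2 CPM used a prior count of 2. DESeq2 1.42.0, other scalings and filters, other fits and leaving out each library in turn served as alternatives. The fit was tested on simulated data. No library was left out.

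Named genes were the 10 members with the highest median level per kb, in each comparison the members called (the 10 with the smallest p where more, the 5 with the smallest p where fewer than 5), the 3 steadiest and 3 least steady, up to 5 on each side of the floor, members of the 3 largest runs, and co-repressor genes called or the 5 with the smallest p. The members and lists were chosen with earlier results of these data known.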

Additional observations from a re-analysis of the deposited data

Results flagged for a closer look

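In groups of 4 libraries, a value was singled out when its gap to the nearest other library was large against the range of its group (Dixon's ratio above its 95% critical value), and 3 of 68 groups tested met this. Chance gives about 1 in 20 groups. In CT db, library het_51 had a summed CPM of 6044 over the KRAB members, beside 4623 in the next library. The same library had 108 CPM of Zfp975, beside 65.9 in the next. Library het_69 had 20.9 CPM of Zfp821, beside 13.8 in the next library of CT db. Groups of 3 libraries, and with them obHet_68, were not tested in this way.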

How the results depend on the processing

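The 30 log2 fold changes of named members gave 525 values under the alternatives: 481 kept their direction and side of the threshold, 18 were no longer called, 26 became called and 0 reversed. The number of members called changed by over 1.5 times in some settings, and the cause was not tested. With DESeq2 it was 3 in db/db against CT db, 5 in ob/ob against CT ob, 58 in CT ob against CT db and 8 for the difference of mutant effects. With no filter beyond 1 count it was 10, 11, 60 and 21 in the same order, beside 0.947%, 1.12%, 4.97% and 0.947% of all genes tested, which were mostly below the floor. In CT ob against CT db it was 8 with library size only and 0 in the fit of only the control groups, which has fewer libraries to estimate the spread from. Leaving out 1 library at a time gave 8 to 40 members called there, with medians of -0.41 to -0.16. The median for the difference of mutant effects ranged from 0.20 to 0.39. Its largest move, without obHet_60, was about equal to the spread between replicates (0.152). With 1 library left out at a time, medians ranged from -0.17 to -0.04 in db/db against CT db, from 0.10 to 0.33 in ob/ob against CT ob and from -0.06 to 0.05 in ob/ob against db/db, and edgeR called 0 members in each of these fits. Library size only gave a median of -0.03 in db/db against CT db. A floor of 20 counts leaves 187 members. No paired analysis was possible because the columns carry no replicate numbers. Lepr and Lep had 17 counts or fewer in each library.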
